A study of Mus musculus with 18 samples.

Results

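The 300 circular RNAs described here carried the highest mean share of antibody-bound signal among the detected circRNAs of mouse cortex, from sham animals and from around an infarct, once the 300 brightest probes were left out. They were chosen from the 14236 circRNA probes of an m6A-circRNA epitranscriptomic array. A probe entered when the scanner software marked both its Cy5 and its Cy3 signal as well above background on all 9 arrays, which held for 9305 probes. Without the 300 probes of highest mean signal 9005 remained, and of these the 300 with the highest mean m6A level over the 9 arrays were taken. These circRNAs were therefore chosen on their m6A level over all arrays, and the height of that level is a description and was not tested. The host genes, genomic positions and sequences of these probes were not analysed here, so each circRNA is given by its probe identifier.

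Cortex was compared between 3 groups of C57BL/6J mice aged 10 weeks. The 3d and 7d groups were killed 3 and 7 days after a permanent distal middle cerebral artery occlusion (MCAO) with a short bilateral closure of the common carotid arteries, and the sham animals were operated on but their cerebral artery was not occluded. Each group had 3 biological replicates, and each replicate was 1 array carrying the immunoprecipitated RNA (IP, Cy5) and the supernatant RNA (Sup, Cy3) of 1 immunoprecipitation. The m6A level is the percentage of IP in the sum of IP and Sup, the ratio is IP over Sup, and expression is IP plus Sup. Because the cortex holds many cell types, fewer cells of a type and less RNA per cell cannot be told apart in these samples. The labelled tissue could not be checked against marker genes, since the probes were not named here.

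N6-methyladenosine (m6A) is a methyl mark inside RNA chains that enzymes can add and take away, and it can influence how an RNA is spliced, exported, translated and degraded. CircRNAs are closed loops formed by back-splicing, which lack free ends, resist the exonuclease RNase R and are abundant in neurons and at synapses. In the assay an antibody against m6A binds methylated RNA, so a circRNA that lies mostly in the bound fraction has a high level.

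Set against the spike-in probes, most high-m6A circRNAs had a higher signal in the IP than in the Sup in the sham and 7d groups. At 3d this depended on the scale. Each channel was scaled on its own, so a level does not measure the share of the RNA that was bound. The scale used here unless another is named is that of the deposited table, which sets each channel of an array against 10 spike-in probes. On it the median level of the high-m6A circRNAs was 64.0% ± 2.78 (SD, n = 3 arrays) in sham, 52.2% ± 5.44 at 3d and 65.4% ± 1.64 at 7d. All 9305 detected circRNAs had median levels of 36.5% ± 4.60, 28.2% ± 3.29 and 38.4% ± 1.45 in the same groups. By array, the median of the high-m6A circRNAs was 65.4, 65.8 and 60.8% in sham, 54.1, 56.5 and 46.1% at 3d and 67.2, 64.98 and 63.9% at 7d. The 3 lowest arrays were those of the 3d group, and they did not overlap with the others. When the scale was taken from the complete set of 102 spike-in probes, the median of the high-m6A circRNAs was 66.2% ± 0.70 in sham, 67.98% ± 1.73 at 3d and 66.8% ± 0.68 at 7d, and the 3d arrays were no longer the lowest 3. On the deposited scale the gap to the median of all detected circRNAs lay between 21.6 and 29.4 percentage points on every array.

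**Figure D1:**
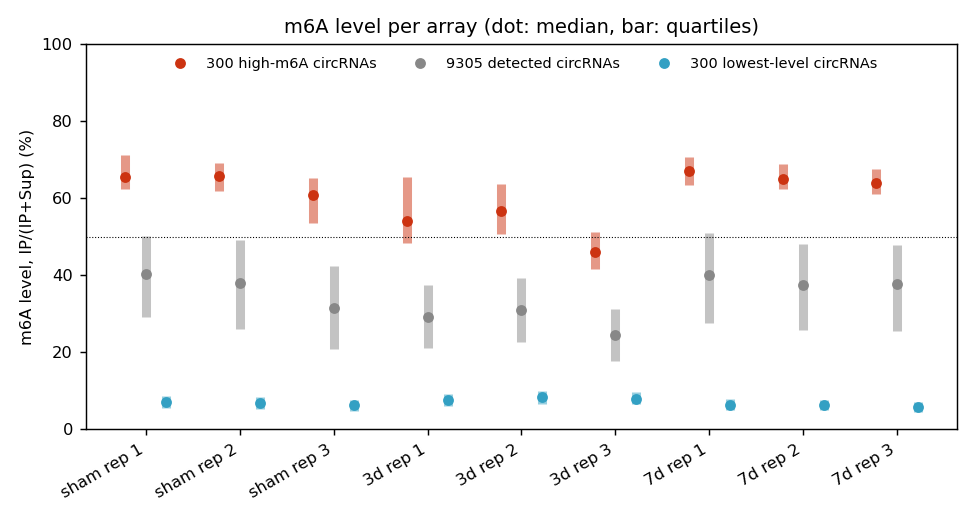
Median m6A level (dots) and quartiles (bars) in percent on each of the 9 arrays for the 300 high-m6A circRNAs, all 9305 detected circRNAs and the 300 circRNAs with the lowest mean level chosen in the same way. The high-m6A circRNAs lie above the others on every array, and on this scale, that of the deposited table, the 3d medians of the high-m6A circRNAs and of all detected circRNAs sit below their sham and 7d medians. The medians of the lowest-level set are 7.55 to 8.33% at 3d, above the 6.33 to 7.17% in sham and the 5.83 to 6.28% at 7d.

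How many of the 300 stayed above 50% on every array depended on the scale. A level of 50% only marks equal IP and Sup signals after each channel was scaled. On the deposited scale 54 of the 300 were above 50% on all 9 arrays, against 57 of all 9305 detected circRNAs, and all 300 were above 50% on at least 6 arrays. With all 102 spike-in probes as the scale the number was 262 of the 300, against 974 of the 9305. On 3d replicate 3, 88 of the 300 were above 50% on the deposited scale and 298 on the complete spike-in scale. On 7d replicate 2 and on sham replicate 1 all 300 were on both scales. By rank among the detected circRNAs, which the choice of the highest mean level over these arrays largely sets, 264 of the 300 were in the top 25% of levels on every array, 147 in the top 10% and 31 in the top 5%. The lowest position of any of the 300 on any array was percentile 29.1.

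Levels within the 300 were narrowly spread. The mean level over the 9 arrays ranged from 57.0 to 79.5% with a median of 59.7%. It was below 60% for 158 circRNAs, between 60 and 65% for 101, between 65 and 70% for 30, between 70 and 75% for 7 and above 75% for 4. The last circRNAs inside the boundary were ASCRP4001949 at 57.02%, ASCRP4012093 at 57.01% and ASCRP4000585 at 56.99%. The first outside it were ASCRP4008314 at 56.99%, ASCRP4008817 at 56.96% and ASCRP4011352 at 56.95%. The boundary thus cut through a continuous range. None of the 300 brightest probes, which were left out, reached the mean level of the last circRNA inside.

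The 4 circRNAs with the highest mean level stood above the rest. ASCRP4008848 had levels of 85.4, 82.5 and 74.5% in sham, 78.7, 83.8 and 61.3% at 3d and 83.2, 79.8 and 86.5% at 7d. ASCRP4010655 had 79.5, 78.1 and 71.6% in sham, 84.0, 85.6 and 73.9% at 3d and 80.4, 83.2 and 72.7% at 7d. The lowest value was that of 3d replicate 3 for ASCRP4008848 and that of sham replicate 3 for ASCRP4010655, and the groups overlapped for each of them. ASCRP4004318 had 80.8, 66.5 and 44.1% in sham, 88.6, 89.1 and 73.8% at 3d and 86.9, 87.4 and 88.6% at 7d. ASCRP4010324 followed it closely, with 81.3, 68.1 and 47.8% in sham, 90.4, 88.0 and 70.7% at 3d and 83.8, 85.1 and 89.3% at 7d. For these 2 circRNAs sham replicate 3 was the lowest of all 9 arrays. The next 6 were ASCRP4013946, ASCRP4007036, ASCRP4004806, ASCRP4005182, ASCRP4004650 and ASCRP4006961, with mean levels between 71.1 and 73.5%.

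The stability of the level differed widely between circRNAs. The SD of the log2 ratio over the 9 arrays ranged from 0.14 to 1.34, with a median of 0.59, against 0.47 for all detected circRNAs. Within groups the median SD was 0.29 for the high-m6A circRNAs and 0.31 for all detected circRNAs. On the deposited scale the most stable were ASCRP4002166, ASCRP4009354 and ASCRP4013596. ASCRP4002166 had 54.9, 56.6 and 56.3% in sham, 56.0, 56.4 and 54.8% at 3d and 60.6, 61.2 and 57.8% at 7d. The most variable on that scale were ASCRP4012494, ASCRP4004318 and ASCRP4010324. ASCRP4012494 had 80.6, 59.6 and 22.5% in sham, 82.4, 78.4 and 56.9% at 3d and 79.7, 80.8 and 81.3% at 7d. Its 3 lowest values were those of sham replicates 3 and 2 and of 3d replicate 3. Sham replicate 3 and 3d replicate 3 also had the lowest median level of their groups over all detected circRNAs, at 31.4% and 24.5%.

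**Figure D2:**
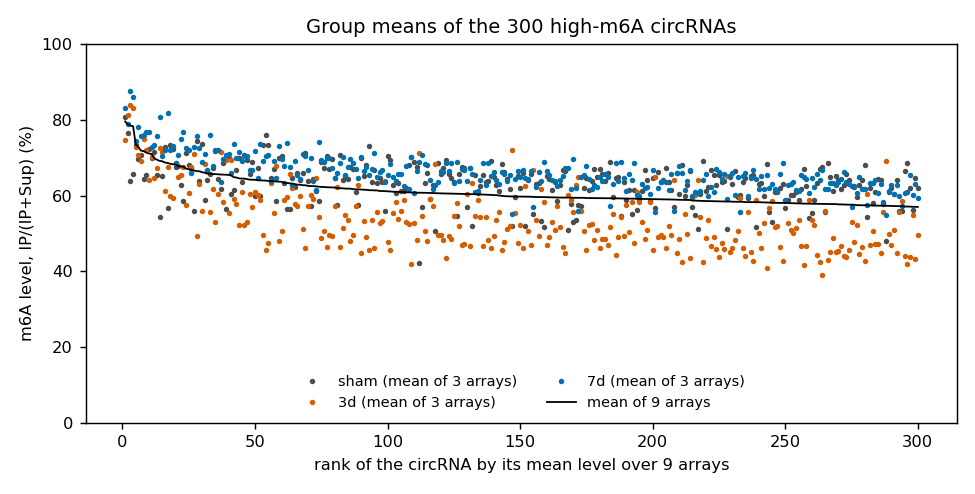
Mean m6A level in percent of each of the 300 high-m6A circRNAs in the sham, 3d and 7d groups on the deposited scale (points, mean of 3 arrays) against its rank by the mean over all 9 arrays (line). The 3d point lies below both other points for 237 of the 300 circRNAs and for 4 of the 10 with the highest mean level. The 3d arrays are part of the mean that sets the rank, which favours circRNAs without a dip at the top. The difference between these counts was not tested. A dip at 3d was not particular to the 300. The ratio was higher at 3d than in sham for 20.3% of them and 20.2% of all probes tested. It was higher at 7d than at 3d for 91.7% and 81.2%.

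A high level could be seen in groups that were not used to choose it. When 300 circRNAs were chosen in the same way on the 3 sham arrays alone, 207 of them were among those described here. That set had median levels of 43.0, 47.8 and 50.04% (ascending) on the 3d arrays, where all detected circRNAs lay between 24.5 and 30.9%. On the 7d arrays its median levels were 62.8, 63.6 and 67.2%, against 37.4 to 40.0% for all detected circRNAs. A set chosen on the 3d arrays alone shared 173 with those described here and had medians between 47.4 and 62.7% on the sham arrays, where all detected circRNAs lay between 31.4 and 40.3%. A set chosen on the 7d arrays alone shared 236. The 3 sets had 76 circRNAs in common, and all 76 were among those described here. The circRNAs described here were chosen on the mean over the same arrays, which largely sets these shared numbers. IP was Cy5 on every array, so a high level and a dye preference of a probe cannot be told apart by any of these comparisons. No immunoprecipitation with a control antibody was analysed here, so the bound signal of unmethylated RNA is unknown.

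The high level lay in both fractions. The choice of a high level largely sets this for circRNAs whose mean signal is near the middle of the detected ones, so it was not tested. Signals are given as log2 values on the scale of the deposited table, on which 0 is the mean of 10 spike-in probes in that channel. Median IP of the high-m6A circRNAs was between 0.87 and 1.21 log2 units above that of all detected circRNAs on the 9 arrays. Median Sup was lower than that of all detected circRNAs on every array, by -0.91 to -0.59 log2 units. Taken as the mean of IP and Sup, the signal of the high-m6A circRNAs had its median at percentile 53.2 of the detected circRNAs, with 44 of the 300 in the brightest 25% and 36 in the dimmest 25%. The 300 lowest-level circRNAs had their median at percentile 76.7, with 161 in the brightest 25% and 0 in the dimmest. In spot position the high-m6A circRNAs were spread over the array, with 82, 72, 79 and 67 in 4 equal bands of its rows.

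The signals were low. The median raw IP signal of the high-m6A circRNAs was between 93 and 108.5 intensity units per array, 4.32 to 6.47 times the local background. The median raw Sup signal was between 59 and 90, 3.62 to 4.99 times the background. None of their spots was saturated or flagged as an outlier. With levels recomputed after a normexp correction with an offset of 50, only 92 of the 300 stayed among the 300 with the highest level, against 293 after within-array loess and 296 with the complete set of 102 spike-in probes as the scale.

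**Figure D3:**
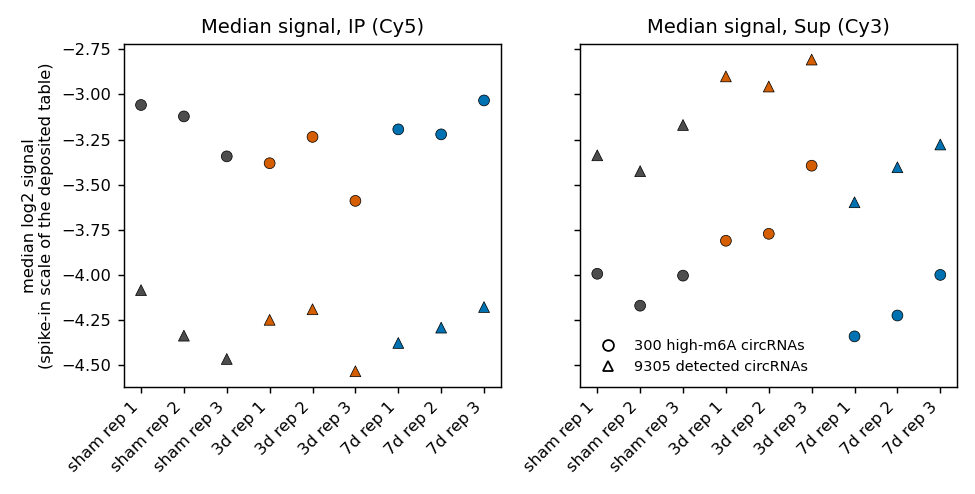
Median log2 signal per array in the IP channel and in the Sup channel, on the spike-in scale of the deposited table, for the 300 high-m6A circRNAs (circles) and all 9305 detected circRNAs (triangles). Circles lie above triangles in IP and below them in Sup on every array, which the choice of a high level largely sets. Both sets have their highest Sup signals at 3d.

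The 3d and 7d arrays shared 1 scan time, and the sham arrays had another, so that differences from sham cannot be told apart from differences between the scans. Within the shared scan the 3d arrays lay in the first row and the 7d arrays in the second, so that the row and the group cannot be told apart in 7d vs. 3d.

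The comparison of 3d vs. sham asked how the early stage after infarction differed from the operated control. On the deposited scale the ratio was lower at 3d than in sham for 239 of the 300 and higher for 61 (20.3%), against 20.2% higher among all probes tested. Of the 300, 138 had a lower ratio and 2 a higher one by limma at a Benjamini-Hochberg adjusted p below 0.05 over 12211 probes. Among all probes tested 25.9% were lower and 0.925% higher. For each of these 140 the arrays of the groups did not overlap. Among all detected circRNAs this held for 2685 of the 2716 lower calls and 84 of the 96 higher ones. The median log2 change of the ratio was -0.67 over the 300 and -0.49 over all probes tested. By the study's threshold (fold change above 1.5 in the level, unadjusted p below 0.05) 25 were hypomethylated and 1 was hypermethylated, against 17.1% and 1.38% of all probes tested. A level above 66.7% cannot rise 1.5-fold, so an increase from such a level cannot pass this threshold. This ceiling concerns increases only. For a fall, the same change of the ratio moves a high level by a smaller fold than a low one. The part of either in the counts was not tested. The number with a lower ratio was 48 without sham replicate 2, 90 without 3d replicate 3 and 30 by the methods' t-test after Benjamini-Hochberg adjustment. Shares over all probes tested under these settings are not given here. After normexp 5 were higher and 56 lower, against 0.893% and 8.92% of all probes tested, and the median change was -0.11. The number with a higher ratio lay between 0 and 8 when 1 array was left out.

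The direction of this comparison rested on the scaling. On the deposited scale the spike-in probes themselves shifted: the median level of all 102 was 35.4, 38.5 and 31.6% on the 3d arrays and 47.3 to 53.2% on the other 6. With the complete set of 102 spike-in probes as the scale, 46 of the 300 were higher and 18 lower (21% and 1.51% of all probes tested), and the median change became 0.15. With each array centred on its median circRNA, 18 were higher and 38 lower, against 7.54% and 4.89% of all probes tested. The median over the 300 was -0.17 log2 units from that of all probes tested on the deposited scale. Taking all spike-in probes or centring shifts every circRNA of an array alike, so neither could change this difference. It was -0.13 after loess, -0.07 after normexp and -0.09 without 3d replicate 3 and sham replicate 3. The part of the scaling in the changes was not tested.

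The 3 circRNAs with the largest called decrease of the ratio are given in full. ASCRP4002454 had levels of 74.5, 75.5 and 77.5% in sham and 48.2, 49.8 and 38.6% at 3d, with 72.8, 70.01 and 68.5% at 7d. Its ratio fell by 1.91 on the log2 scale (SE 0.23, limma with Benjamini-Hochberg adjustment, adjusted p = 0.00853). Here the Sup signal rose, by 1.22 log2 units (limma, Benjamini-Hochberg adjusted p = 0.0115), and the change of IP was -0.70 (limma, Benjamini-Hochberg adjusted p = 0.0518). ASCRP4005224 had levels of 72.9, 67.9 and 69.8% in sham, 45.2, 43.8 and 37.0% at 3d and 74.9, 65.8 and 69.9% at 7d. ASCRP4006990 had 69.6, 67.8 and 65.3%, 42.7, 43.3 and 31.4%, and 67.1, 67.7 and 65.1% in the same order. The ratio of each fell by 1.71 (SE 0.24). In both IP fell, by 1.12 and 1.01 (limma, Benjamini-Hochberg adjusted p = 0.0326 and 0.035), and the changes of Sup were 0.59 and 0.70 (limma, Benjamini-Hochberg adjusted p = 0.1 and 0.106). In all 3 the 3d arrays stood below those of both other groups, and standing apart from sham was a condition for naming them. The sham and 7d arrays overlapped in ASCRP4005224 and ASCRP4006990, while in ASCRP4002454 the 7d arrays lay below the sham arrays. With the arrays centred their ratios fell by 1.40, 1.19 and 1.19, and with all spike-in probes the changes were -1.095, -0.89 and -0.89. After normexp the changes were -0.34, -0.35 and -0.66 (limma, Benjamini-Hochberg adjusted p = 0.132, 0.0786 and 0.0098), and the first 2 no longer passed the test.

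The 2 circRNAs with a higher ratio at 3d were ASCRP4002555 and ASCRP4007905. ASCRP4002555 had 56.1, 44.2 and 25.9% in sham, 79.5, 76.2 and 58.2% at 3d and 66.9, 72.04 and 67.8% at 7d. Its ratio rose by 1.87 log2 units (SE 0.47, limma with Benjamini-Hochberg adjustment, adjusted p = 0.0194). ASCRP4007905 had 63.5, 54.8 and 37.8% in sham, 78.1, 73.9 and 64.4% at 3d and 60.4, 61.2 and 43.8% at 7d. Its ratio rose by 1.28 (SE 0.42, limma with Benjamini-Hochberg adjustment, adjusted p = 0.0453). In both replicate 3 was the lowest of its group in sham and in 3d, and without sham replicate 3 the increases were 1.36 and 0.86. When each of the 6 arrays was left out in turn, the increase of ASCRP4002555 passed the test in 4 fits and that of ASCRP4007905 in 1. The increase of ASCRP4007905 also missed the threshold after normexp, where it was 1.15 (limma, Benjamini-Hochberg adjusted p = 0.0955), with no filter and with only the 6 arrays compared.

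**Figure D4:**
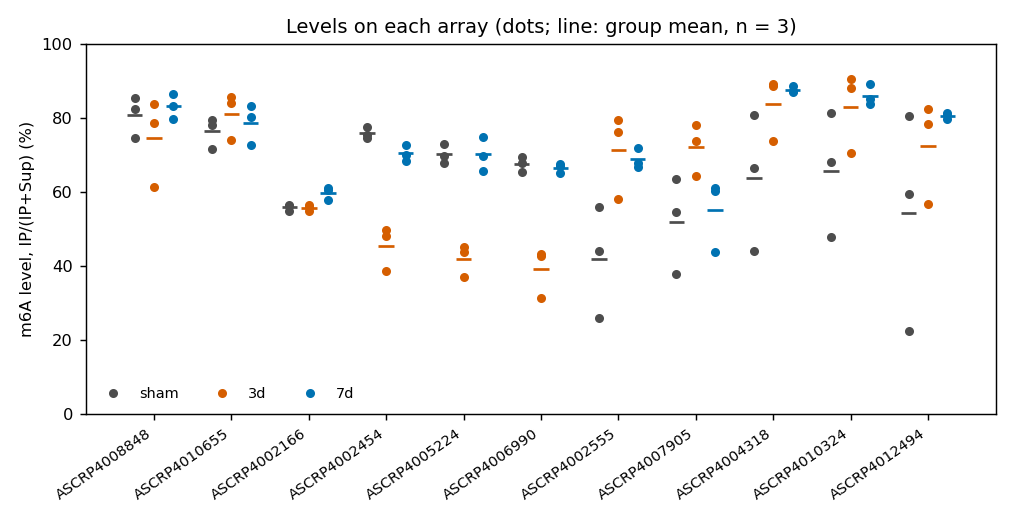
m6A level in percent on each array (dots) and group mean (line, n = 3) for 11 of the high-m6A circRNAs named in the text. ASCRP4002454, ASCRP4005224 and ASCRP4006990 are lower at 3d than in both other groups, ASCRP4002555 and ASCRP4007905 are higher at 3d than in sham, and ASCRP4012494 spreads from 22.5 to 82.4%.

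On the deposited scale the fractions were also tested one by one. IP was lower at 3d than in sham for 73 circRNAs and higher for 1, against 4.56% and 0.827% of all probes tested. Sup was higher for 80 and lower for 4, against 30.9% and 0.237%. Of the 138 with a lower ratio, 60 also had lower IP and 36 higher Sup, 2 of them both, and for 44 neither fraction passed the test alone. The same split over all probes called is not given here, so these counts only describe the 138. The median change of the 300 was -0.27 in IP and 0.43 in Sup, against 0.03 and 0.49 over all probes tested. No test of the difference between the 300 and the rest was made.

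Expression at 3d rose in some of the 300 and fell in others. IP plus Sup was higher than in sham for 13 and lower for 28 by limma, against 16.2% and 0.622% of all probes tested. The median log2 change was 0.09 over the 300 and 0.32 over all probes tested. The sign of the median of the 300 turned under other scalings: it was -0.22 with the arrays centred, -0.16 after normalization between arrays by quantiles and -0.04 with all spike-in probes, against 0.01, -0.01 and -0.00 over all probes tested. ASCRP4003067 rose by 1.21 log2 units (SE 0.20), from -4.43, -4.72 and -4.64 in sham to -3.45, -3.38 and -3.33. ASCRP4010930 rose by 0.90 (SE 0.20), from -3.52, -3.81 and -3.46 to -2.43, -2.56 and -3.11. ASCRP4011227 fell by 1.06 (SE 0.15), from -0.57, -0.49 and -0.58 to -1.74, -1.57 and -1.50. ASCRP4002854 fell by 1.00 (SE 0.16), from -0.76, -0.75 and -0.83 to -1.90, -1.80 and -1.62. The arrays of the groups were apart for these 4, which was a condition for naming them. Their adjusted p lay between 0.024 and 0.028 (limma, Benjamini-Hochberg). After normexp the 4 changes were 0.39, 0.41, -0.66 and -0.69 and none passed the test, and with all spike-in probes that of ASCRP4010930 did not. Without 3d replicate 2, sham replicate 1 or sham replicate 2, 0 were called in either direction, without 3d replicate 1 6 were higher and 8 lower, and without 3d replicate 3 or sham replicate 3 the higher ones fell to 4 and 5. With arrays centred 0 were higher and 7 lower, against 0.0573% and 0.147% of all probes tested. At an unadjusted p below 0.05 limma gave 48 higher and 55 lower on the deposited scale, against 35.3% and 2.3% of all probes tested, and the methods' t-test gave 0 in either direction after Benjamini-Hochberg adjustment. By the study's threshold for expression 35 were higher and 26 lower, against 21.8% and 0.712%.

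The comparison of 7d vs. sham asked whether the later stage differed from the operated control. The ratio of none of the 300 passed the test. By limma with Benjamini-Hochberg adjustment 0 were higher and 0 lower, as for all probes tested (0% in each direction). At an unadjusted p below 0.05 limma gave 10 higher and 1 lower (3.18% and 2.69% of all probes tested), the study's threshold gave 1 and 0 (1.15% and 1.03%), and the methods' t-test after adjustment gave 0 and 0. The median log2 change of the ratio was 0.10 over the 300 and 0.06 over all probes tested. It was -0.00 without sham replicate 3 and -0.03 with the arrays centred. After normexp it was 0.06 over the 300 and 0.24 over all probes tested. The smallest p of an increase was that of ASCRP4004236, with levels of 75.6, 51.2 and 43.3% in sham and 80.9, 80.3 and 83.9% at 7d (log2 change 1.73, SE 0.48, limma with Benjamini-Hochberg adjustment, adjusted p = 0.761). The smallest p of a decrease was that of ASCRP4006477, with 69.8, 75.5 and 61.0% in sham and 56.2, 59.4 and 56.2% at 7d (log2 change -0.73, SE 0.29, limma with Benjamini-Hochberg adjustment, adjusted p = 0.82). The arrays of the groups did not overlap in these 2, but neither change passed the test, and after normexp the changes were 0.55 and 0.02.

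Neither fraction passed the test, as limma with adjustment called 0 of the 300 in IP (0% and 0.0328% of all probes tested) and 0 in Sup (0% and 0.0164%). At an unadjusted p below 0.05 there were 23 higher and 51 lower in IP (8.89% and 13.2%) and 23 higher and 53 lower in Sup (8.66% and 13.2%).

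Expression at 7d was higher than in sham for 1 of the 300 and lower for 6, against 0.352% and 1.11% of all probes tested. The circRNA that rose was ASCRP4005208, by 0.78 log2 units (SE 0.15), from -3.05, -3.04 and -2.90 to -2.17, -2.34 and -2.13. ASCRP4001732 fell by 1.03 (SE 0.22), from -0.67, -0.51 and -0.64 to -1.79, -1.64 and -1.49. ASCRP4004009 fell by 0.98 (SE 0.19), from -2.05, -2.12 and -2.28 to -3.07, -3.27 and -3.07. The groups were apart for all 3, which was a condition for naming them. Leaving out any 1 of the 6 arrays left 0 calls in either direction. The adjusted p of the 3 (limma, Benjamini-Hochberg) lay between 0.0473 and 0.0497. After normexp the 3 changes were 0.51, -0.73 and -0.25 and none passed the test. By the study's threshold 17 were higher and 32 lower, against 5.82% and 8.34% of all probes tested.

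**Figure D5:**
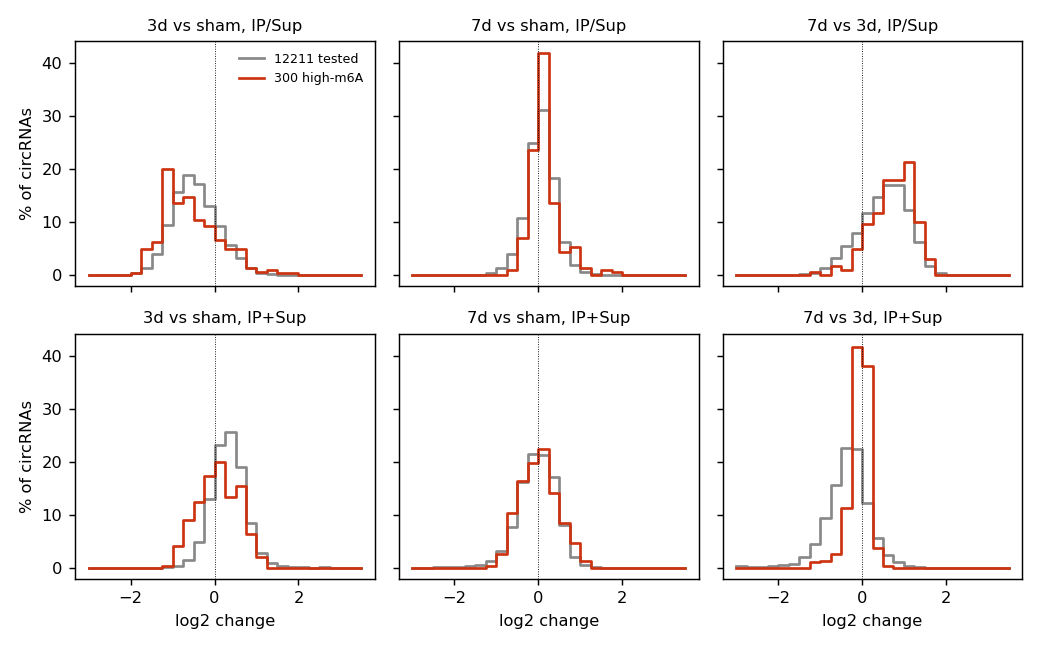
Distribution of log2 changes (percent of circRNAs per bin of 0.25) for the 300 high-m6A circRNAs and all 12211 probes tested, in the ratio IP/Sup (upper row) and in expression IP+Sup (lower row), in the 3 comparisons named above each panel and on the deposited scale, with changes beyond the axis in the end bins. The high-m6A circRNAs have a median ratio change of -0.67, 0.10 and 0.77 in the 3 comparisons, and in expression for 7d vs. 3d they centre near 0 where all probes tested lie at -0.31.

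The comparison of 7d vs. 3d set the later stage against the early one within 1 scan. It shares the 3d arrays with 3d vs. sham, so the 2 comparisons are not independent. On the deposited scale 154 of the 300 had a higher ratio at 7d and 0 a lower one by limma with Benjamini-Hochberg adjustment, against 34.2% and 1.79% of all probes tested. At an unadjusted p below 0.05 there were 181 higher and 2 lower, against 45.2% and 3.18%. The methods' t-test after adjustment gave 122 higher and 0 lower, and its share over all probes tested is not given here. For each of the 154 the arrays of the groups did not overlap, as for 3594 of the 3614 higher calls among all detected circRNAs. The median log2 change was 0.77 over the 300 and 0.57 over all probes tested. The median of the 300 was above that of all probes tested by 0.20 log2 units on the deposited scale. Taking all spike-in probes or centring shifts every circRNA of an array alike, so neither could change this difference. After loess it was 0.18. After normexp the order turned, with medians of 0.19 over the 300 and 0.29 over all probes tested. There 68 of the 300 were called higher, against 31% of all probes tested. By the study's threshold 24 were hypermethylated and 0 were hypomethylated, against 23.9% and 1.97%. With the arrays centred 28 were higher and 8 lower, against 5.64% and 12.2%. With the complete spike-in set as the scale 11 were higher and 30 lower (1.77% and 21.8% of all probes tested), with a median change of -0.10. Without 7d replicate 1 the number of higher ones was 101, and without 3d replicate 3 there were 2 lower ones.

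The 3 circRNAs with the largest increases were ASCRP4005224, ASCRP4005367 and ASCRP4006990. ASCRP4005367 had levels of 53.4, 47.9 and 46.5% at 3d and 81.6, 70.1 and 75.3% at 7d, with 74.1, 77.1 and 72.1% in sham. Its ratio rose by 1.71 log2 units (SE 0.26), and those of ASCRP4005224 and ASCRP4006990, whose levels are given above, by 1.71 (SE 0.24) and 1.64 (SE 0.24). The adjusted p of each was 0.00583 (limma, Benjamini-Hochberg). The Sup signal fell by 1.25 in ASCRP4005224 and by 1.11 in ASCRP4005367 (limma, Benjamini-Hochberg adjusted p = 0.00505 and 0.00491). In ASCRP4006990 the Sup signal fell by 1.0978 (limma, Benjamini-Hochberg adjusted p = 0.0168). In the order ASCRP4005224, ASCRP4005367 and ASCRP4006990 the ratios rose by 1.07, 1.06 and 1.00 with the arrays centred and by 0.85, 0.84 and 0.78 with all spike-in probes. After normexp the changes were 0.37, 0.35 and 0.57 (limma, Benjamini-Hochberg adjusted p = 0.0301, 0.05 and 0.00691), and that of ASCRP4005367 no longer passed the test.

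In 7d vs. 3d most calls by fraction lay in the supernatant, both among the 300 and over all probes tested. Sup was lower at 7d than at 3d for 114 of the 300 and higher for 1, against 44.7% and 1.91% of all probes tested. IP was called for 0 in either direction by limma, against 0.0328% higher and 0.467% lower, with 98 higher and 1 lower at an unadjusted p below 0.05 (8.28% and 8.98% of all probes tested). The median change of the 300 was 0.30 in IP and -0.52 in Sup, against 0.05 and -0.58 over all probes tested. Of the 154 with a higher ratio, 85 also had lower Sup, and for 69 neither fraction passed the test alone. The same split over all probes called is not given here, so these counts only describe the 154.

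Expression of few of the 300 passed the test in 7d vs. 3d. Only 3 of the 300 were lower and 1 was higher at 7d, against 25.4% and 1.04% of all probes tested. By the study's threshold 0 were higher and 7 lower, against 2.19% and 25.6%. The median log2 change was -0.05 over the 300 and -0.31 over all probes tested. With all spike-in probes the medians were 0.15 and 0.06. With the arrays centred, 261 of the 300 had a change above 0 and the median was 0.26, against 49.9% with a change above 0 and a median of -0.0014 over all probes tested, with 5 called higher and 1 lower (5.24% and 6.56% of all probes tested). ASCRP4002854 rose by 0.52 log2 units (SE 0.16), from -1.90, -1.80 and -1.62 at 3d to -1.16, -1.51 and -1.08 at 7d, and remained below its sham values. ASCRP4002410 fell by 1.22 (SE 0.23), from -0.71, -0.71 and -0.41 to -1.73, -1.48 and -2.28. ASCRP4011059 fell by 0.76 (SE 0.20), from -2.76, -3.33 and -3.45 to -4.02, -3.77 and -4.02. The groups were apart for these 3, which was a condition for naming them (limma, Benjamini-Hochberg adjusted p = 0.0377, 0.00686 and 0.0192). After normexp the change of ASCRP4002410 was -0.89 and passed the test, those of ASCRP4002854 (0.36) and ASCRP4011059 (-0.02) did not, and with all spike-in probes none of the 3 did. Without 3d replicate 1, 3d replicate 3 or 7d replicate 1 the number of lower ones became 6, 11 and 1, and the one higher call was lost without 3d replicate 1, 3d replicate 2, 7d replicate 1 or 7d replicate 3.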

How the data were processed

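RNA of each replicate was immunoprecipitated with an anti-m6A antibody, digested with RNase R, labelled and hybridised as 1 two-colour array. The deposited scanner files hold intensity values from Agilent Feature Extraction 11.0.1.1 (per the labels), and both files of an array were identical. The deposited table holds the authors' log2 values, which equal the background-subtracted, dye-normalized processed signals less 1 constant per channel and array, the mean log2 signal of 10 spike-in probes. That scale was used throughout, with flagged outlier spots left out. An offset of 50 shrinks the ratio of signals this dim, so normexp was kept as an alternative.

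Log2 ratios and log2 expression were fitted with limma 3.58.1 in R 4.3.3 (lmFit and eBayes, two-sided) on all 9 arrays for the 12211 probes marked as well above background for Cy5 and Cy3 on 3 or more arrays, among them all 300. P-values were adjusted by Benjamini-Hochberg over all of them and called below 0.05. Number of arrays limits the precision. Samples were grouped and numbered by their titles. The descriptions give other replicate numbers for 7d replicates 2 and 3 and sham replicate 3, and 1 sham supernatant sample carries a tissue label like that of the infarcted groups.

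The named circRNAs were the 10 highest, those nearest the boundary, the 3 most and least stable, and per comparison the largest called changes with groups apart (up to 3 in ratio and 2 in expression each way, otherwise the smallest p). The circRNAs and these rules were chosen with earlier results of these data known. Gene lists could not be applied because probes were not named here.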

Additional observations from a re-analysis of the deposited data

How the results depend on the processing

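Counts are of the 300, higher then lower, for 3d vs. sham, then 7d vs. sham, then 7d vs. 3d, and the counts that moved by over 1.5 times are given. Where no share over all probes tested is given here or above, a count only describes the 300 and is no result about them against the rest. After normexp with offset 50 the ratio counts were 5 and 56, against 0.893% and 8.92% of all probes tested. For 7d vs. 3d 68 were higher, against 31%. The expression counts were 0 and 0, 0 and 0, and 0 and 1. With all spike-in probes the ratio counts were 46 and 18 for 3d vs. sham and 11 and 30 for 7d vs. 3d, and expression counts 2 higher, 3 and 15, and 0 and 0. With arrays centred they were 18 and 38, and 28 and 8, with expression 0 and 7, 3 higher (1.02% of all probes tested), and 5 and 1. After loess the ratio counts were 17 and 43, against 7.04% and 5.64% of all probes tested, and 30 and 8, against 6.59% and 11%. With quantile normalization the expression counts were 0 and 2, 3 lower, and 13 and 1. With the filter on all 9 arrays 4 were higher in ratio at 3d, 1 lower in 7d vs. 3d and 13 lower in expression at 7d. With no filter 1 was higher in ratio at 3d, and expression at 7d had 0 and 0. By the study's threshold the ratio counts were 1 and 25, 1 higher, and 24 higher, and expression 35 higher, 17 and 32, and 0 and 7. The methods' t-test at that threshold gave 0 and 23, 1 higher, and 24 higher, with expression 4 and 30 at 7d and 0 and 1 in 7d vs. 3d. After Benjamini-Hochberg adjustment it gave 0 and 30 in ratio at 3d, and in expression 0 and 0, 0 and 0, and 0 higher in 7d vs. 3d. With only the 6 arrays compared, 1 was higher in ratio at 3d and 1 lower in 7d vs. 3d, and expression had 2 and 9, 0 and 0, and 0 higher. With the replicate block, 6 were higher in ratio at 3d and 2 lower in 7d vs. 3d, and expression at 7d had 0 and 0. The numbers were not taken to pair the arrays: the deviations of equally numbered arrays correlated at 0.42, 0.095 and 0.41 between 3d and sham, -0.09 to 0.07 between 3d and 7d and -0.19 to -0.08 between 7d and sham, and no label says what they share.

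Leaving out 1 array, ratio counts lay between 0 and 8 higher and 48 and 150 lower for 3d vs. sham, at 0 for 7d vs. sham, and between 101 and 151 higher and 0 and 2 lower for 7d vs. 3d. The lower count for 3d vs. sham was 48 without sham replicate 2 and 90 without 3d replicate 3. For fits without 1 array and for the t-test, shares over all probes tested are not given here. Expression counts lay between 0 and 6 higher and 0 and 27 lower, at 0 and 0, and between 0 and 1 higher and 1 and 11 lower. An alternative chosen after seeing the data left out 3d replicate 3 and sham replicate 3 together. It gave 5 higher in ratio at 3d (1.29% of all probes tested) and 4 lower in 7d vs. 3d (2.94%). In expression it gave 46 lower at 3d, 0 and 0 at 7d, and 11 lower in 7d vs. 3d.

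The median ratio change was -0.11 for 3d vs. sham and 0.19 for 7d vs. 3d after normexp, 0.151 and -0.0977 with all spike-in probes, -0.15 and 0.12 with arrays centred and -0.15 and 0.16 after loess. For 7d vs. sham it was 0.064 after normexp, 0.054 with all spike-in probes, -0.0275 with arrays centred, -0.00649 after loess and -0.00461 without sham replicate 3, also with both replicates left out. Leaving out 1 array, it lay between -0.80 and -0.49 for 3d vs. sham, -0.00461 and 0.16 for 7d vs. sham and 0.56 and 0.92 for 7d vs. 3d. Membership lay between 277 and 293 when 1 array was left out, and was 92 after normexp and 173 on the 3d arrays alone. The ratio change of ASCRP4006477 in 7d vs. sham became 0.0176 after normexp. Of the alternatives for called changes of named circRNAs, 202 kept direction and call and 86 kept the direction and lost the call. Of those for the 2 changes that were not called, 31 kept the direction without a call and 1 turned direction. The slide as a block was not run: each scan held either the sham arrays or the others. The causes were not tested. The raw Sup signal was 3.62 to 4.99 times the background.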
